A study of Mus musculus with 18 samples.

Results

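A group of 8 genes of the glucocorticoid and metabolic stress response, *Txnip*, *Fkbp5*, *Sgk1*, *Tsc22d3*, *Zbtb16*, *Pdk4*, *Cdkn1a* and *Nr3c1*, were followed in the mRNA of 3 brain regions of 6 mice. The 8 genes are a list of symbols, matched to the Ensembl identifiers of the count table through GENCODE M21, and all 8 were found among its 53468 genes. The list was chosen by results of these same libraries (levels by region and differences between mice and genotypes), with no threshold recorded. The members' differences are therefore a description, and their calls are counted beside the share of all genes called.

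The mice were Fmr1CRE knock-in mice and wild-type (WT) littermates, 3 of each, taken at postnatal day 25 (P25). Fmr1CRE carries, on a C57BL/6 background, a single-base change made by CRISPR/Cas9 in a *cis*-regulatory element assigned to *Fmr1*, the X-linked gene of the fragile X syndrome. The coding sequence of *Fmr1* was left as it was, several lines were founded, and the line of each mouse is not given in the sources used here. Poly(A) RNA of dissected forebrain, midbrain and hindbrain gave 1 library per region and mouse, 18 in all, and WT mice served as the controls.

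Glucocorticoids are steroid hormones of the adrenal gland that reach the brain through the blood and rise in stress and over the daily cycle. They bind the glucocorticoid receptor, which moves to the nucleus and switches on a set of genes by binding palindromic DNA elements, and some of the products then restrain the response. Several of the same genes also follow glucose, fasting or DNA damage through other factors, so that they report on the state of the whole animal as well as on the tissue.

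The receptor is encoded by *Nr3c1* (ENSMUSG00000024431), on the minus strand of chromosome 18. *Fkbp5* (ENSMUSG00000024222, chr17:28399094-28517527, minus strand) encodes a co-chaperone that lowers the receptor's affinity for hormone and is itself induced by the receptor. *Tsc22d3* (ENSMUSG00000031431, chrX:140539528-140600659, minus strand) encodes GILZ, a leucine zipper protein that mediates anti-inflammatory effects of glucocorticoids. *Sgk1* (ENSMUSG00000019970, chr10:21882184-21999903, plus strand) encodes a serum- and glucocorticoid-regulated kinase that acts on ion channels and transporters. *Zbtb16* (ENSMUSG00000066687, chr9:48654297-48836222, minus strand) encodes the zinc finger repressor PLZF.

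*Txnip* (ENSMUSG00000038393, chr3:96557957-96561883, plus strand) encodes an alpha-arrestin that binds thioredoxin and limits glucose uptake. *Pdk4* (ENSMUSG00000019577, chr6:5483351-5496309, minus strand) encodes a kinase that shuts off pyruvate dehydrogenase in fasting. *Cdkn1a* (ENSMUSG00000023067, chr17:29090976-29100727, plus strand) encodes p21, the cyclin-dependent kinase inhibitor induced by p53. All positions are of GRCm38.

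The 3 upstream sequences below are shown because each holds the element through which one of the inputs is classically read. Capitals mark the match to the glucocorticoid response element in *Sgk1*, to the carbohydrate response element in *Txnip* and to the p53 element in *Cdkn1a*. Each is 250 bases ending just before the start site, 5′ to 3′ on the plus strand of GRCm38.p6, from RefSeq.
Txnip, chr3:96557707-96557956: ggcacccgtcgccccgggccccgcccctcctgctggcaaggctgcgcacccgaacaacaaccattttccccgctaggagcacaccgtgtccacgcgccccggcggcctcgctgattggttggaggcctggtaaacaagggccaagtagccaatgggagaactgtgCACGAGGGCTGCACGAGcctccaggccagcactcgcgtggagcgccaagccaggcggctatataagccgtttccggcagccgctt
Sgk1, chr10:21993640-21993889: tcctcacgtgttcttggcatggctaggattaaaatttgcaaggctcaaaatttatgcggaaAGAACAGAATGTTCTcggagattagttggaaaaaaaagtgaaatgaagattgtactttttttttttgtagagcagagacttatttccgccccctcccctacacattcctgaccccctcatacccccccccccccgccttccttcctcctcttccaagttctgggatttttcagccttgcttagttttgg
Cdkn1a, chr17:29090729-29090978: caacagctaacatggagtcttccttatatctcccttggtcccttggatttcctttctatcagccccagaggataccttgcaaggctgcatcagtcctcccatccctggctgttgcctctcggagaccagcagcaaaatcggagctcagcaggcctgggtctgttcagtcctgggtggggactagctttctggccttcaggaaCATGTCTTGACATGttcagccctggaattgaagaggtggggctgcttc

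The letters searched on both strands were AGAACA, any 3 bases and TGTTC for the glucocorticoid element, CACGNG and again CACGNG with 5 bases between for the carbohydrate element, and CATG and again CATG with 6 bases between for the p53 element. No 2 of these overlapped in the windows shown. They were chosen with the members' promoters in view. The glucocorticoid letters occur in 10 of 32851 such windows of RefSeq genes (0.0304%), the carbohydrate letters in 15 (0.0457%) and the p53 letters in 161 (0.49%). In *Txnip* the match lies 85 to 69 bases before the start of Txnip-202, the transcript with 48.1% of the gene's reads over all libraries. The *Sgk1* window belongs to Sgk1-202, with 3.26% of the reads, and the start of Sgk1-201, with 67.6%, lies downstream at position 21994666. The *Cdkn1a* window belongs to Cdkn1a-202, with 0.766% of the reads, and Cdkn1a-201, with 90.8%, starts downstream at 29093769. Of the 14 windows of 6 members searched, these 3 held a match. *Fkbp5*, *Tsc22d3* and *Pdk4* had windows without these letters, and *Zbtb16* and *Nr3c1* are named only.

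The 18 libraries held 22455512 to 28061185 gene counts each. Values are CPM, a gene's count relative to the size of its library, after TMM scaling over the 18 libraries, a scaling that sets aside genes with large differences. Regional markers followed the dissection. The summed CPM of 8 forebrain markers was 1363.5 to 1590.7 in forebrain and 23.0 to 44.3 in hindbrain, and that of 10 hindbrain markers was 60.4 to 86.7 and 646.9 to 1229.7. Midbrain libraries stood between, with forebrain markers at 571.5 to 967.6. *Fmr1* itself differed between genotypes by -0.00 on the log2 scale in forebrain (standard error 0.11), by 0.01 in midbrain (0.10) and by 0.15 in hindbrain (0.13).

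The forebrain libraries of the replicate 3 mice went against the other libraries of the same mice. *Rps15a-ps8*, a pseudogene, was at 0 CPM in midbrain and hindbrain of Fmr1CRE replicate 3 and at 9.59 and 13.7 CPM in WT replicate 3. In forebrain it was at 11.1 CPM in Fmr1CRE replicate 3 and at 0.0391 CPM in WT replicate 3. Of 26 genes that told these mice apart in all regions, with the same direction in midbrain and hindbrain, 6 had that direction in forebrain (23.1%), against 35.5% to 66.7% in the other 14 pairs of mice. An exchange of the forebrain libraries and an exchange of the midbrain and hindbrain libraries cannot be told apart. The labels were kept, and the differences of *Txnip* and *Tsc22d3* between genotypes, and those of other members that moved, are given with and without both replicate 3 mice. Counts of genes without overlap and medians of lists are given for all mice.

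Per kilobase of transcript (RPKM), the members spanned a wide range of levels in every region. *Tsc22d3* was the highest, with an RPKM of 44.2 ± 10.2 (SD, n = 6) in forebrain, 57.3 ± 9.78 in midbrain and 81.2 ± 8.99 in hindbrain. *Sgk1*, at 19.6 ± 3.86 RPKM in forebrain, and *Nr3c1*, at 19.1 ± 1.79 RPKM, came next and did not differ beyond their spread. *Fkbp5* at 11 ± 1.82, *Txnip* at 9.35 ± 3.22 and *Cdkn1a* at 8.81 ± 1.06 RPKM formed a middle group in forebrain whose neighbours overlapped. *Zbtb16* at 5.90 ± 0.909 and *Pdk4* at 2.73 ± 0.628 RPKM were the lowest.

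In hindbrain the order below *Tsc22d3* changed. *Sgk1* was at 27.6 ± 8.92 RPKM and *Nr3c1* at 14.0 ± 1.51, and *Cdkn1a*, at 10.5 ± 1.06, now stood above *Fkbp5*, at 5.50 ± 1.36. *Txnip* was at 8.95 ± 3.21 RPKM between them. *Zbtb16* had dropped to 2.00 ± 0.632 RPKM and overlapped *Pdk4* at 2.29 ± 0.578. Salmon shares reads among similar transcripts, so the level of a gene with close paralogs carries that uncertainty.

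**Figure D1:**
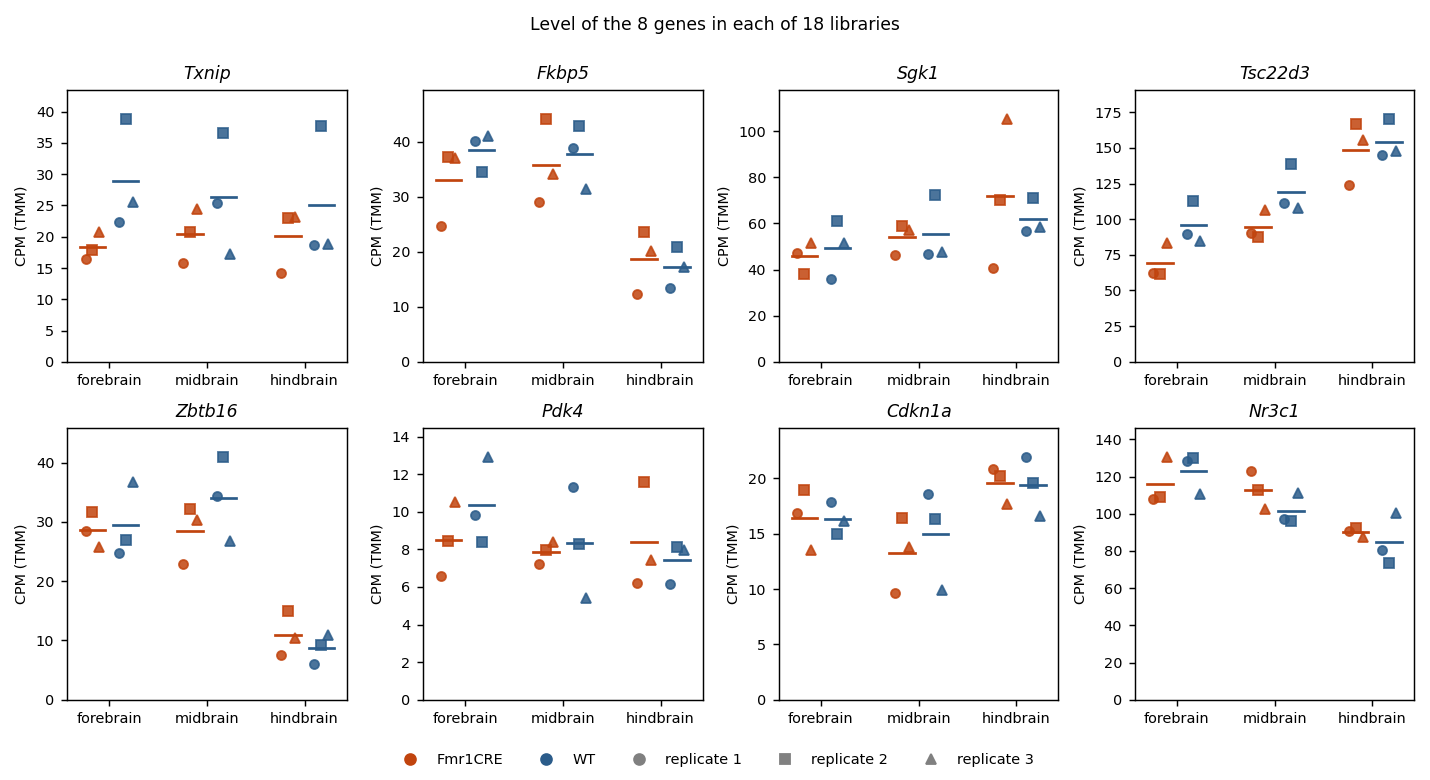
CPM of the 8 genes in each of the 18 libraries (vertical axes, CPM from 0), by region, with Fmr1CRE in red-brown, WT in blue, replicates by symbol and a bar at each group mean. *Zbtb16* and *Fkbp5* are low in all 6 hindbrain libraries, *Tsc22d3* is high there, and WT replicate 2 (blue square) has the highest *Txnip* and *Tsc22d3* of every region.

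The first comparison asked how the level of each gene differed between regions of the same mice. *Zbtb16* and *Fkbp5* were far lower in hindbrain than in the other regions, *Tsc22d3* rose from forebrain over midbrain to hindbrain, and *Nr3c1* was lower in hindbrain than in both other regions. *Txnip* and *Pdk4*, both tied to glucose use, stayed at like levels in all regions. In bulk tissue, fewer cells of a type and less RNA per cell cannot be told apart.

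*Zbtb16* was at 24.7 to 36.8 CPM in forebrain (median 27.6) and at 22.9 to 40.9 CPM in midbrain (median 31.2). In hindbrain it was at 5.97 to 15.0 CPM (median 9.83), so that no hindbrain library reached the lowest library of another region. Its log2 fold change was -1.59 (standard error 0.17) in hindbrain against forebrain and -1.69 (0.17) in hindbrain against midbrain, a level of 0.333 times (95% confidence interval 0.258 to 0.428) that of forebrain. Between midbrain and forebrain the difference was 0.10 (0.16).

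*Fkbp5* was at 24.7 to 41.0 CPM in forebrain (median 37.2), 29.0 to 44.1 in midbrain (median 36.6) and 12.3 to 23.6 in hindbrain (median 18.7). Again the hindbrain libraries lay below every other library. The log2 fold change was -1.01 (standard error 0.12) against forebrain and -1.04 (0.12) against midbrain, and the level was 0.497 times (95% confidence interval 0.418 to 0.591) that of forebrain. Midbrain and forebrain differed by 0.03 (0.11).

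*Tsc22d3* went the other way. It was at 61.9 to 113.0 CPM in forebrain (median 84.0), 87.8 to 138.5 in midbrain (median 107.1) and 124.0 to 170.1 in hindbrain (median 151.4). Hindbrain and forebrain did not overlap, and midbrain overlapped both. The log2 fold change was 0.91 (standard error 0.09) in hindbrain against forebrain, 0.38 (0.09) in midbrain against forebrain and 0.53 (0.09) in hindbrain against midbrain.

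*Nr3c1*, the receptor, was at 108.2 to 130.4 CPM in forebrain (median 119.4), 96.1 to 122.9 in midbrain (median 106.7) and 73.4 to 100.5 in hindbrain (median 89.2). All hindbrain libraries were below all forebrain libraries. The log2 fold change was -0.45 (standard error 0.09) in hindbrain against forebrain and -0.28 (0.09) in hindbrain against midbrain. Midbrain and forebrain differed by -0.17 (0.09, 95% confidence interval -0.37 to 0.03), and their libraries overlapped. By medians the receptor had the opposite order of regions to *Tsc22d3*. Between hindbrain and forebrain it had the same direction as *Fkbp5* and *Zbtb16*.

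*Sgk1* was at 35.7 to 61.0 CPM in forebrain (median 49.2), 46.3 to 72.3 in midbrain (median 52.4) and 40.7 to 105.2 in hindbrain (median 64.4), with overlap throughout. Its log2 fold change was 0.48 (standard error 0.14) in hindbrain against forebrain. *Cdkn1a* was at 13.5 to 18.9 CPM in forebrain, 9.61 to 18.6 in midbrain and 16.6 to 21.9 in hindbrain, and differed by 0.50 (0.13) between hindbrain and midbrain. The hindbrain libraries of both genes overlapped those of the region they were compared with.

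*Txnip* was at a mean of 23.6 ± 8.14 CPM (SD, n = 6) in forebrain, 23.4 ± 7.50 in midbrain and 22.6 ± 8.11 in hindbrain. Its differences between regions lay between -0.07 and -0.02 on the log2 scale, with a widest interval from -0.31 to 0.17 for hindbrain against forebrain. *Pdk4* was at 9.43 ± 2.17, 8.10 ± 1.93 and 7.92 ± 2.00 CPM, and its intervals reached from -0.66 to 0.38. Differences of that size are not excluded by these intervals.

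**Figure D2:**
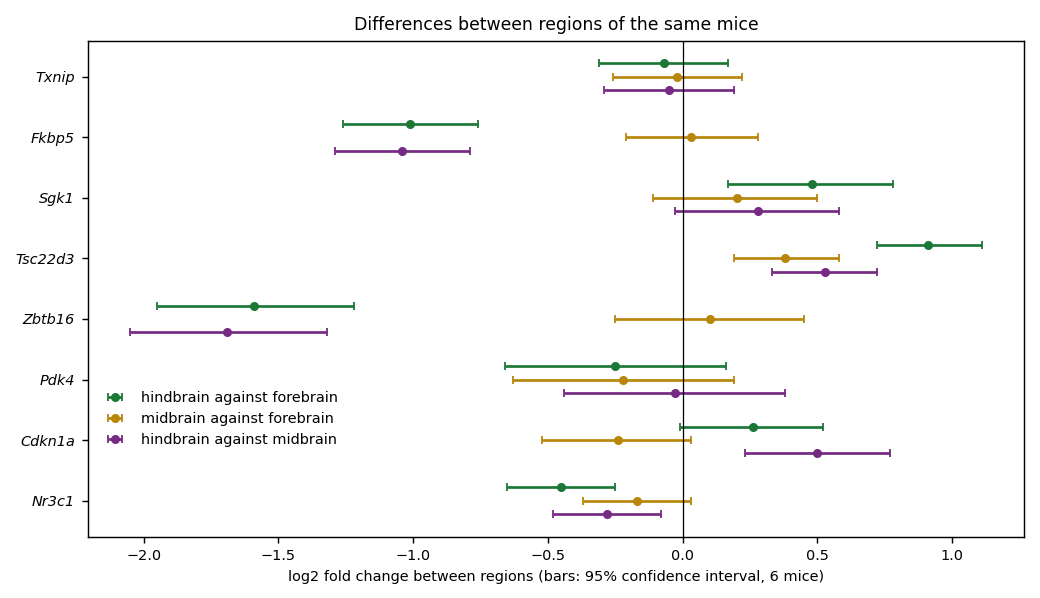
Log2 fold change between regions (horizontal axis) for the 8 genes (rows), from a fit over 18 libraries with the mouse as a block, with bars for the 95% confidence interval. *Zbtb16* and *Fkbp5* sit at -1.01 or below in both comparisons with hindbrain, *Tsc22d3* is above 0 in all 3, and *Txnip* is near 0 in all 3.

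Of the 8 members, 5 had an adjusted p under 0.05 (edgeR, quasi-likelihood test with the mouse as a block, Benjamini-Hochberg over all genes) in hindbrain against forebrain, 2 higher and 3 lower, beside 51.6% of all genes tested (25.3% higher and 26.3% lower). In midbrain against forebrain it was 1 member, *Tsc22d3*, beside 18.2% (9.42% higher and 8.79% lower). In hindbrain against midbrain it was 5 members, 2 higher and 3 lower, beside 49.1% (23.9% higher and 25.2% lower). These shares are close to the background, and nothing is read from them. The median log2 fold change of the members in hindbrain against forebrain was -0.16, and that of all genes 0.01. Without both replicate 3 mice, *Sgk1* in hindbrain against forebrain (0.39), *Tsc22d3* in midbrain against forebrain (0.40) and *Nr3c1* in hindbrain against midbrain (-0.34) were no longer called. *Sgk1* in hindbrain against forebrain was also lost without Fmr1CRE replicate 2, without Fmr1CRE replicate 3 or without WT replicate 1 (0.35 to 0.43), and *Nr3c1* in hindbrain against midbrain without Fmr1CRE replicate 1 (-0.25), where *Sgk1* was called in that comparison (0.36).

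Cell type markers moved between the same regions. The summed CPM of 10 oligodendrocyte markers was 13949.7 to 17888.5 in forebrain, 18554.9 to 21861.8 in midbrain and 31743.5 to 44320.5 in hindbrain, in the order of *Tsc22d3*. That of 10 microglia markers was 435.7 to 594.1, 318.4 to 405.5 and 230.9 to 278.3, in the order of the *Nr3c1* medians. Of these markers 10 of 10 were called lower in hindbrain than in forebrain. Of the astrocyte markers 4 of 10 were higher and 2 lower, of the endothelial markers 1 of 10 higher and 3 lower, and of the neuron markers 5 of 10 higher and 4 lower. Choroid plexus markers were higher in 5 of 10 cases and blood markers in 5 of 5. The part of these cell types in the members' differences was not tested.

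The genes around the members in the same pathways were called in both directions, as all genes were. The counts of this and the following lists stand beside the shares of all genes given above. In hindbrain against forebrain these were 25.3% higher and 26.3% lower. Of 30 other glucocorticoid-induced genes, 10 were higher and 10 lower in hindbrain than in forebrain (edgeR, adjusted p under 0.05), with a median log2 fold change of -0.11. The metallothionein *Mt2* (0.78, standard error 0.08, adjusted p = 3e-06 from edgeR), the lipid droplet gene *Plin4* (0.69) and the EGFR inhibitor *Errfi1* (0.59) were higher, as *Tsc22d3* and *Sgk1* were. The Ras-related *Rasd1* (-1.87), the clock gene *Per1* (-1.49) and the transglutaminase *Tgm2* (-1.40) were lower, as *Fkbp5* and *Zbtb16* were. In midbrain against forebrain 3 of the 30 were higher (*Irs2*, *Errfi1* and *Bcl6*, 0.41 to 0.59) and 2 lower (*Arl4d*, -0.89, and *Klf9*, -0.39). In hindbrain against midbrain 7 were higher, led by *Mt2* (0.80), *Fam107a* (0.68) and *Mt1* (0.50), and 8 lower, led by *Rasd1* (-2.03), *Per1* (-1.21) and *Tgm2* (-1.04).

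The receptor's partners also split. Of 12 genes of the receptor machinery, 5 were higher in hindbrain than in forebrain, among them *Hsd11b1* (0.92), which regenerates active glucocorticoid, and the chaperone genes *Fkbp4* (0.84) and *Hsp90aa1* (0.73). Another 6 were lower, among them the coactivator gene *Crebbp* (-1.15) and the corepressor gene *Ncor1* (-0.87), beside *Nr3c1* itself at -0.45. *Fkbp4*, which encodes the co-chaperone that competes with the *Fkbp5* product on the receptor, thus rose where *Fkbp5* fell. In midbrain against forebrain 5 were higher and 0 lower, with *Nr3c2*, the mineralocorticoid receptor gene (0.63), *Fkbp4* (0.50) and *Stip1* (0.46) in front. In hindbrain against midbrain 5 were higher (*Hsd11b1* 0.81, *Hsp90aa1* 0.37 and *Fkbp4* 0.34 in front) and 7 lower, among them *Nr3c2* (-1.39) and *Crebbp* (-1.11).

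Of 16 genes of fasting, glucose and FoxO control, 8 were lower in hindbrain than in forebrain and 1 was higher, with a median of -0.49. *Foxo1* (-1.50), *Mlxipl*, which encodes the factor ChREBP that reads glucose (-1.35), and *Pdk1* (-1.12) were the lowest, while *Txnip* and *Pdk4* differed by -0.07 and -0.25. The gene called higher was *Pdk3* (0.29). In midbrain against forebrain *Ppargc1a* (0.52) and *Pdk2* (0.47) were higher, and *Mlxipl* (-0.70) and *Foxo1* (-0.43) lower. In hindbrain against midbrain 8 were lower, led by *Foxo1* (-1.07), *Pdk1* (-0.78) and *Mlxipl* (-0.65), and 0 were higher.

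Beside *Cdkn1a*, 13 other p53 target genes were listed. In hindbrain against forebrain *Phlda3* (1.25) and *Gadd45a* (1.04) were higher and *Btg2* (-0.99), *Zmat3* (-0.68) and *Ccng1* (-0.36) lower, with *Cdkn1a* at 0.26. In midbrain against forebrain *Phlda3* (0.50) and *Sesn2* (0.49) were higher and *Ccng1* (-0.30) was lower. In hindbrain against midbrain, where *Cdkn1a* differed by 0.50, *Phlda3* (0.74) and *Gadd45a* (0.66) were higher and *Btg2* (-0.93), *Zmat3* (-0.70) and *Sesn2* (-0.38) lower.

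Of 10 genes of amino acid and unfolded protein stress, *Psat1* (0.36), *Chac1* (0.30) and *Hspa5* (0.26) were higher in hindbrain than in forebrain and 0 were lower. In midbrain against forebrain *Sesn2* (0.49), *Chac1* (0.45) and *Hspa5* (0.36) were higher. In hindbrain against midbrain *Psat1* (0.57) and *Ddit3* (0.26) were higher and *Sesn2* (-0.38) was lower. In hindbrain against forebrain these values were below the 0.91 of *Tsc22d3*.

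Paralogs of the members differed in both directions. Of 17 paralogs, 7 were higher and 4 lower in hindbrain than in forebrain. *Cdkn1c*, of the same family of inhibitors as *Cdkn1a*, differed most (1.42), and *Arrdc3*, an alpha-arrestin gene like *Txnip*, by 0.53. *Pdk1* (-1.12), *Nr3c2* (-0.76) and *Zbtb7a* (-0.62) were the lowest. *Sgk3* was lower in midbrain than in forebrain (-0.51), and *Sgk3* (0.45), *Cdkn1c* (1.39) and *Tsc22d4* (0.42) were higher in hindbrain than in midbrain. *Zbtb7a* (-0.78), beside *Nr3c2* and *Pdk1*, was among the lowest there. Clock genes were mostly lower in hindbrain than in forebrain (9 of 12, with 1 higher), as were immediate early genes (9 of 11, with 0 higher).

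The second comparison asked whether the members moved together between mice. Within a region, *Txnip* and *Tsc22d3* followed each other across mice, and WT replicate 2 held the highest level of both in all 3 regions. Fmr1CRE replicate 1 held the lowest *Txnip* and the lowest *Fkbp5* in all 3 regions. The relation of *Nr3c1* to the others changed its direction with the region, except that to *Cdkn1a*, which was negative in all 3.

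*Txnip* in forebrain was at 16.4, 17.8 and 20.7 CPM in Fmr1CRE replicates 1 to 3 and at 22.3, 38.8 and 25.6 CPM in WT replicates 1 to 3. In midbrain it was at 15.8, 20.8 and 24.5 CPM in Fmr1CRE and at 25.4, 36.6 and 17.3 CPM in WT. In hindbrain it was at 14.2, 23.0 and 23.2 CPM in Fmr1CRE and at 18.7, 37.7 and 18.8 CPM in WT. WT replicate 2 was thus 1.87 times the median of the other 5 mice in forebrain, 1.76 times in midbrain and 2.00 times in hindbrain. The genotypes did not overlap in forebrain and overlapped in midbrain and hindbrain.

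*Tsc22d3* in forebrain was at 62.4, 61.9 and 83 CPM in Fmr1CRE replicates 1 to 3 and at 89.7, 113.0 and 84.9 CPM in WT. In midbrain it was at 90.2, 87.8 and 106.6 CPM in Fmr1CRE and at 111.6, 138.5 and 107.7 CPM in WT. In hindbrain it was at 124.0, 166.9 and 155.3 CPM in Fmr1CRE and at 145.1, 170.1 and 147.5 CPM in WT. WT replicate 2 stood at 1.36, 1.3 and 1.15 times the median of the others in forebrain, midbrain and hindbrain. The genotypes did not overlap in forebrain and midbrain, by gaps of 83 to 84.9 and 106.6 to 107.7 CPM, and overlapped in hindbrain.

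*Sgk1* was also highest in WT replicate 2 in forebrain and midbrain, but in hindbrain the highest library was Fmr1CRE replicate 3. Its hindbrain values were 40.7, 70.2 and 105.2 CPM in Fmr1CRE and 56.9, 70.9 and 58.6 CPM in WT, the widest spread of the gene in any region. In forebrain they were 47.1, 38.2 and 51.7 CPM in Fmr1CRE and 35.7, 61.0 and 51.3 CPM in WT. In midbrain Fmr1CRE was at 46.3, 58.8 and 57.2 CPM and WT at 46.6, 72.3 and 47.7 CPM. Fmr1CRE replicate 1 was the lowest in midbrain and hindbrain.

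*Fkbp5* in forebrain was at 24.7, 37.3 and 37.0 CPM in Fmr1CRE and at 40.2, 34.5 and 41.0 CPM in WT. In midbrain it was at 29.0, 44.1 and 34.2 CPM and at 38.9, 42.8 and 31.5 CPM. In hindbrain it was at 12.3, 23.6 and 20.2 CPM and at 13.5, 20.8 and 17.2 CPM. Fmr1CRE replicate 1 was the lowest of 6 each time. The highest mouse was WT replicate 3 in forebrain and Fmr1CRE replicate 2 in midbrain and hindbrain.

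*Zbtb16* and *Pdk4* shared the highest mouse in 2 regions. In hindbrain *Zbtb16* was at 7.50, 15.0 and 10.4 CPM in Fmr1CRE and at 5.97, 9.31 and 10.9 CPM in WT, and *Pdk4* at 6.22, 11.6 and 7.41 CPM and at 6.16, 8.12 and 7.99 CPM. Fmr1CRE replicate 2 was the highest for both, and for *Fkbp5* as well. In forebrain *Zbtb16* was at 28.4, 31.6 and 25.8 CPM in Fmr1CRE and at 24.7, 26.9 and 36.8 CPM in WT, and *Pdk4* at 6.56, 8.44 and 10.5 CPM and at 9.82, 8.39 and 12.9 CPM. There WT replicate 3 was the highest for both and for *Fkbp5*. In midbrain *Zbtb16* was at 22.9, 32.1 and 30.3 CPM and at 34.4, 40.9 and 26.7 CPM, and *Pdk4* at 7.21, 7.97 and 8.39 CPM and at 11.3, 8.29 and 5.41 CPM, with different mice at the top.

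*Cdkn1a* in midbrain was at 9.61, 16.4 and 13.8 CPM in Fmr1CRE and at 18.6, 16.3 and 9.87 CPM in WT, a ratio of 1.94 between the highest and the lowest mouse. In forebrain it was at 16.9, 18.9 and 13.5 CPM and at 17.9, 15.0 and 16.1 CPM, and in hindbrain at 20.8, 20.2 and 17.7 CPM and at 21.9, 19.6 and 16.6 CPM. *Nr3c1* varied least between mice, with a coefficient of variation of 9.38% to 10.8% in a region, against 32.0% to 35.9% for *Txnip*. It was at 108.2, 108.9 and 130.4 CPM in Fmr1CRE forebrain and at 128.2, 130.1 and 110.5 CPM in WT forebrain. In midbrain *Nr3c1* was at 122.9, 113.0 and 102.4 CPM and at 97.2, 96.1 and 111.1 CPM, and in hindbrain at 90.7, 92.3 and 87.6 CPM and at 80.7, 73.4 and 100.5 CPM. WT replicate 2, the highest mouse for *Txnip*, was the lowest for *Nr3c1* in midbrain and hindbrain and second highest in forebrain.

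**Figure D3:**
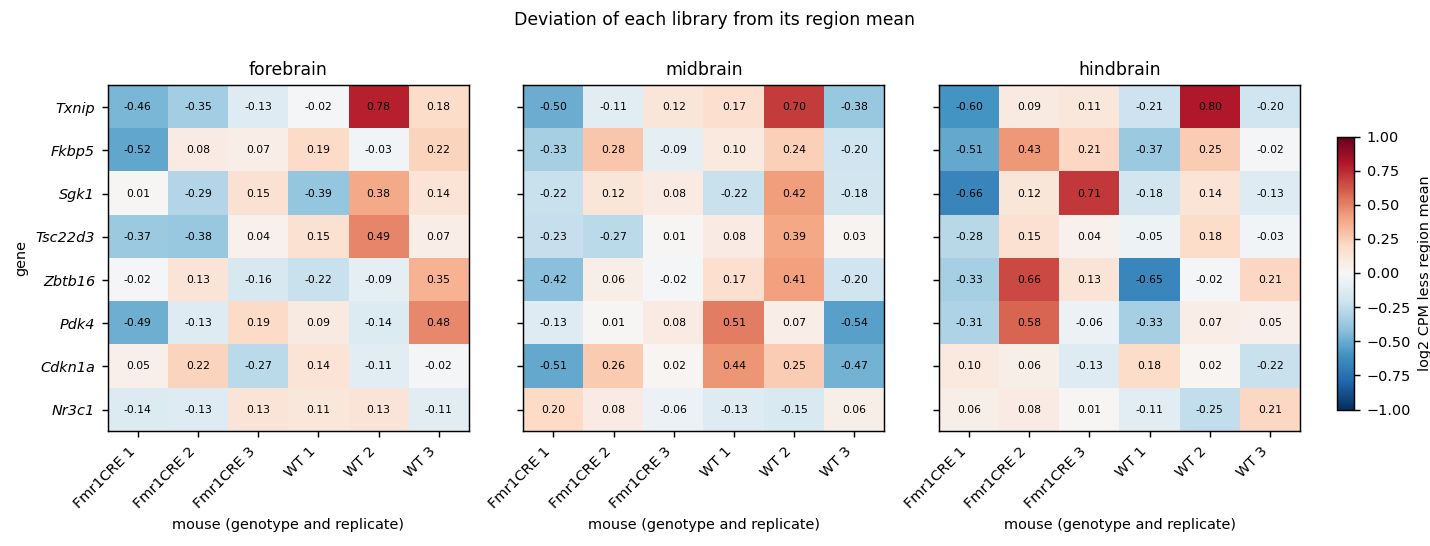
Log2 CPM of each library less the mean of its region (colour scale, with the value in each cell) for the 8 genes (rows) in the 6 mice (columns) of each region. *Txnip* in WT replicate 2 lies 0.70 to 0.80 above its region means, and Fmr1CRE replicate 1 is below the mean for *Txnip*, *Fkbp5*, *Tsc22d3*, *Zbtb16* and *Pdk4* in all 3 regions.

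Over the 18 libraries, each gene taken as its deviation from the region mean on the log2 CPM scale, *Txnip* and *Tsc22d3* had a Pearson correlation of 0.85 (Spearman 0.83). It was 0.93, 0.82 and 0.89 over the 6 mice of forebrain, midbrain and hindbrain, 0.75 without the 3 libraries of WT replicate 2, and 0.89 without the 6 libraries of replicate 3. These points are 3 libraries from each of 6 mice, sequenced to similar depth, and are not independent. The list was chosen partly for genes that shift together, so that these correlations describe the members and are set against no background.

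A further group was formed by *Fkbp5*, *Pdk4* and *Zbtb16*, with correlations of 0.75 for *Fkbp5* and *Pdk4*, 0.71 for *Fkbp5* and *Zbtb16* and 0.66 for *Zbtb16* and *Pdk4*. In forebrain alone *Fkbp5* and *Zbtb16* had 0.18, and in midbrain and hindbrain 0.88 and 0.84. Of all 28 pairs of members 19 had a correlation above 0, with a median of 0.30. Over the 18 libraries the 7 pairs with *Nr3c1* lay between -0.58, with *Cdkn1a*, and -0.02, with *Tsc22d3*, but these values join regions that differed. *Nr3c1* and *Tsc22d3* had 0.78 in forebrain, -0.83 in midbrain and -0.36 in hindbrain (n = 6 each). *Nr3c1* and *Txnip* had 0.56, -0.90 and -0.65, and *Nr3c1* and *Cdkn1a* -0.57, -0.75 and -0.50.

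**Figure D4:**
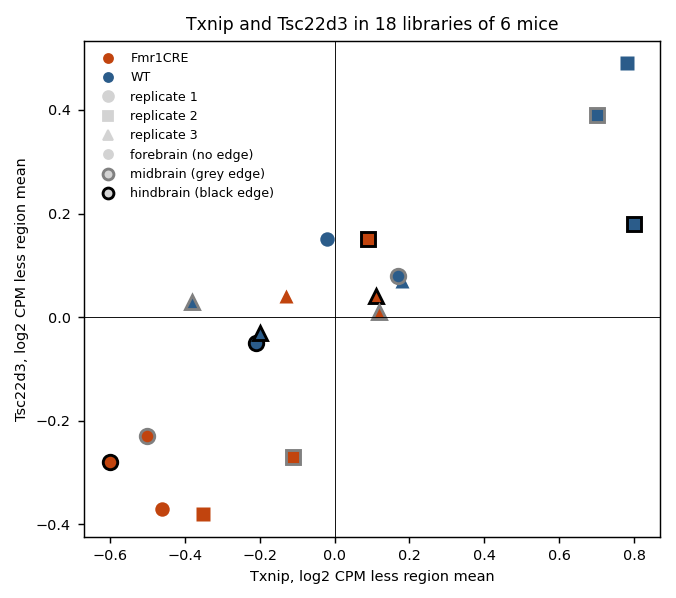
Log2 CPM less the region mean for *Txnip* (horizontal axis) and *Tsc22d3* (vertical axis) in the 18 libraries, with genotype by colour, replicate by symbol and region by edge. The 3 libraries of WT replicate 2 lie at the upper right and the 3 of Fmr1CRE replicate 1 at the lower left.

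The genes most like the mean of the members other than *Nr3c1*, over the same 18 libraries, were *3110053B16Rik* (Pearson correlation 0.89), *Klf15* (0.88), *B930095G15Rik* (0.88), *Pdcd11* (0.88), *Plxna4* (0.86), *Hist1h1e* (0.86), *Oxa1l* (0.86), *Zfp536* (0.85), *Rrbp1* (0.85) and *Lrrc8a* (0.85). *Klf15*, a Krüppel-like factor induced by glucocorticoids, was on the list of other glucocorticoid-induced genes, and none of the rest was. *Klf15* was at 21.3, 23.2 and 25.4 CPM in Fmr1CRE forebrain and at 21.7, 28.7 and 27.5 CPM in WT forebrain. There the lowest library was again Fmr1CRE replicate 1 and the highest WT replicate 2. In hindbrain the highest was Fmr1CRE replicate 2, at 24.5 CPM, with WT replicate 2 at 24.2 CPM. For *Nr3c1* the nearest genes were *Lrrtm2* (0.95), *Tmem123* (0.93), *Abhd17b* (0.93), *Tmx3* (0.92) and *Uba3* (0.92).

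Other measures also differed between these mice. *Fos*, an immediate early gene whose mRNA rises with neuronal activity, was at 3.88 CPM in Fmr1CRE replicate 3 and 3.91 CPM in WT replicate 2 in forebrain and at 25.1 to 32.4 CPM in the other forebrain libraries. In midbrain it was at 6.24 and 4.93 CPM in WT replicates 2 and 3 and at 17.0 to 42.8 CPM elsewhere, and in hindbrain at 3.50 and 4.71 CPM in the same mice and at 18.9 to 22.8 CPM elsewhere. WT replicate 2, with the highest *Txnip* of every region, was thus among the 2 libraries with the lowest *Fos* each time. The other library low in *Fos* had no high *Txnip*. It was at 20.7 CPM in forebrain (Fmr1CRE replicate 3) and at 17.3 and 18.8 CPM in midbrain and hindbrain (WT replicate 3), within the range of the other mice. Astrocyte markers summed to 4193.9 CPM in forebrain and 4308.4 CPM in midbrain of Fmr1CRE replicate 1, the lowest of 6 in both, and to 4856.8 CPM in its hindbrain, within the range of the other mice (4334.7 to 5290.2). The part of neuronal activity and of cell composition in the members' levels was not tested.

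The third comparison asked whether Fmr1CRE mice differed from WT littermates in any region. The CPM of *Txnip* was below WT in all 3 Fmr1CRE forebrain libraries. That of *Tsc22d3* was below WT in all 3 of forebrain and of midbrain, while no adjusted test called a member. These 3 cases hang on the replicate 3 labels, and each would overlap if those were exchanged in its region. Fmr1CRE and WT replicate 3 were at 20.7 and 25.6 CPM for *Txnip* in forebrain. For *Tsc22d3* they were at 83 and 84.9 CPM in forebrain and 106.6 and 107.7 CPM in midbrain. Of all genes, 10.3% in forebrain and 11.3% in midbrain had no overlap. The log2 fold changes of the other 6 members lay between -0.26 and 0.32 over the regions. Adding the 3 regions of each mouse left *Txnip* with a log2 fold change of -0.43 (95% confidence interval -0.99 to 0.12) and *Tsc22d3* with -0.23 (-0.48 to 0.02). Without both replicate 3 mice these sums gave -0.71 (-1.42 to 0.01) and -0.35 (-0.68 to -0.01). WT replicate 2 moved both sums most, to -0.10 (-0.48 to 0.28) for *Txnip* and -0.12 (-0.35 to 0.12) for *Tsc22d3* when it was left out. Without Fmr1CRE replicate 1 they were -0.29 (-0.89 to 0.32) and -0.15 (-0.40 to 0.10).

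For *Txnip* the log2 fold change was -0.63 in forebrain (standard error 0.21, 95% confidence interval -1.12 to -0.14), -0.37 (0.27, -1.0 to 0.26) in midbrain and -0.33 (0.31, -1.05 to 0.39) in hindbrain. Without both replicate 3 mice these were -0.79 (95% confidence interval -1.48 to -0.10), -0.75 (-1.32 to -0.17) and -0.62 (-1.58 to 0.34). Without WT replicate 2 alone they were -0.36, -0.06 and 0.09, so that this mouse carried most of the difference in midbrain and hindbrain and a good part of it in forebrain.

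*Tsc22d3* differed by -0.44 (standard error 0.16, 95% confidence interval -0.80 to -0.08) in forebrain, -0.33 (0.13, -0.63 to -0.03) in midbrain and -0.06 (0.13, -0.37 to 0.25) in hindbrain. Without both replicate 3 mice the values were -0.65 (95% confidence interval -1.04 to -0.27), -0.48 (-0.82 to -0.14) and -0.13 (-0.56 to 0.29). Without WT replicate 2 they were -0.31, -0.21 and 0.01. Leaving out both mice of replicate 2, an alternative added after seeing the data, gave -0.24, -0.15 and -0.08 for *Tsc22d3* and -0.34, -0.07 and -0.02 for *Txnip*.

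The other members had intervals that crossed 0 in every region. *Fkbp5* differed by -0.20, -0.08 and 0.11 in forebrain, midbrain and hindbrain (standard errors 0.16, 0.17 and 0.26). *Sgk1* differed by -0.08, -0.04 and 0.20 (0.21, 0.19 and 0.30), and *Zbtb16* by -0.01, -0.26 and 0.32 (0.18, 0.18 and 0.30). For *Pdk4* the values were -0.26, -0.08 and 0.17 (0.22, 0.25 and 0.25), for *Cdkn1a* 0.04, -0.16 and 0.00 (0.17, 0.26 and 0.15), and for *Nr3c1* -0.06, 0.15 and 0.08 (0.11, 0.11 and 0.13). The differences of *Zbtb16* in midbrain and hindbrain and of *Pdk4* in forebrain were thus of a size near that of *Txnip* in hindbrain. Among the widest intervals was that of *Zbtb16* in hindbrain, from -0.37 to 1.01, and the narrowest that of *Nr3c1* in midbrain, from -0.10 to 0.41. Without both replicate 3 mice, *Nr3c1* was at -0.20 in forebrain and 0.30 in midbrain, and *Zbtb16* at 0.26 in forebrain.

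Between genotypes in forebrain 0 cell type markers were called (edgeR), and the summed CPM of each list overlapped. That of the astrocyte markers was 4193.9 to 6434.2 in Fmr1CRE and 5892.4 to 8287.4 in WT. For the endothelial markers it was 157.1 to 222.4 and 201.2 to 265.1. Of the astrocyte markers 1 of 10 was above 0 in Fmr1CRE against WT (median log2 fold change -0.25), of the endothelial markers 1 of 10 (-0.23) and of the microglia markers 1 of 10 (-0.10), while the median of the oligodendrocyte markers was 0.01 and that of the neuron markers -0.02. In midbrain, where *Tsc22d3* was also lower, the medians were 0.05 for astrocyte, -0.00 for endothelial and 0.25 for microglia markers. There 10 of 10 microglia markers were above 0. Their summed CPM did not overlap as labelled, at 365.7 to 405.5 in Fmr1CRE and 318.4 to 348.4 in WT, while the sums of the other cell type lists overlapped. The part of these cell types in the differences of *Txnip* and *Tsc22d3* was not tested.

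**Figure D5:**
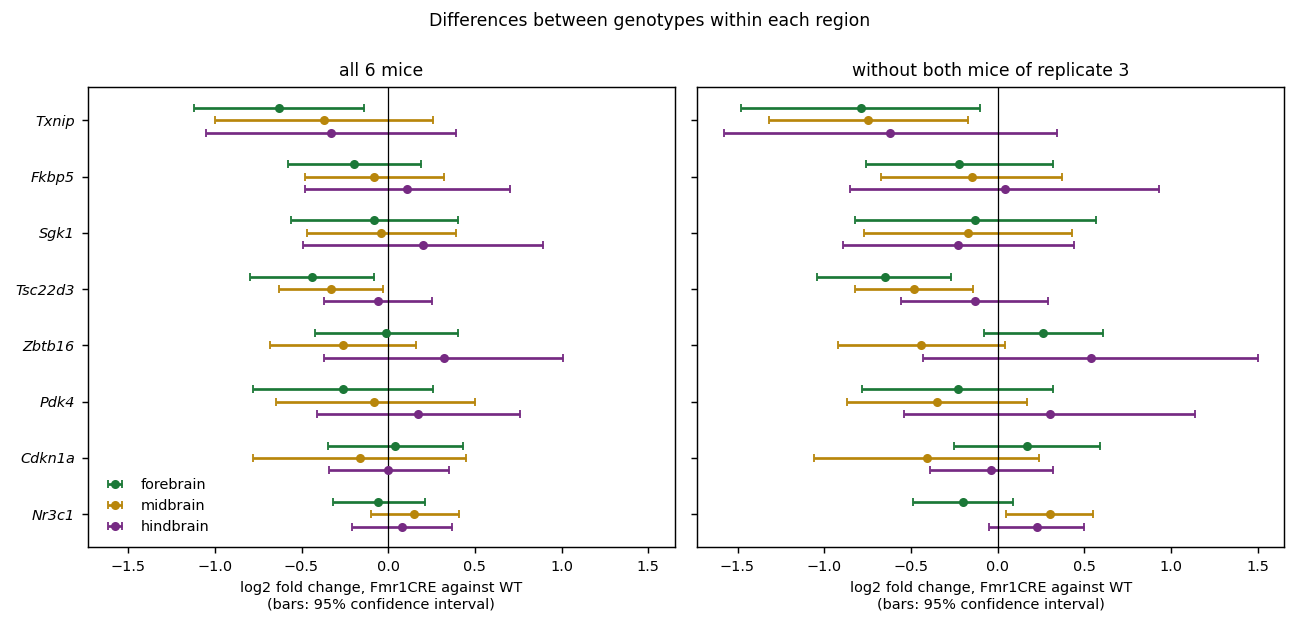
Log2 fold change of Fmr1CRE against WT (horizontal axes) for the 8 genes (rows) in each region, with bars for the 95% confidence interval, over all 6 mice (left) and without both replicate 3 mice (right). *Txnip* and *Tsc22d3* lie below 0 in all regions of both panels.

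No member passed an adjusted p of 0.05 between genotypes, in a region or in the sums (edgeR, 0 of 8, and 0 of 8 with DESeq2, which called 31, 62, 60 and 29 genes in forebrain, midbrain, hindbrain and the sums). Of all genes tested 0% were called in forebrain, 0.00543% in midbrain, 0% in hindbrain and 0.00451% in the sums, with 1002, 1135, 981 and 820 genes at an unadjusted p under 0.05. Among the members *Txnip* in forebrain and *Tsc22d3* in forebrain and midbrain were the 3 such cases in a region. The CPM of the genotypes did not overlap for 2 of 8 members in forebrain, 1 in midbrain and 0 in hindbrain, beside 10.3%, 11.3% and 10.9% of all genes. Fmr1CRE was the lower genotype in these 3 cases, as in 5.99%, 4.91% and 5.69% of all genes, with the replicate 3 labels kept. With 3 mice against 3, nothing more than these sizes and intervals is read from the members.

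Of the replicate 3 mice, *Txnip*, *Fkbp5*, *Cdkn1a* and *Nr3c1* differed in one direction in midbrain and hindbrain and in the opposite direction in forebrain. *Txnip* was lower in Fmr1CRE replicate 3 than in WT replicate 3 by 0.30 on the log2 CPM scale in forebrain and higher by 0.50 in midbrain and 0.30 in hindbrain. This pattern was seen for 2 of 8 members between the mice of replicate 1 and for 1 of 8 between those of replicate 2. Exchanging labels was not done, and the genotype of these forebrain libraries is given as labelled.

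A test of whether the genotype difference itself differed between regions, with the mouse as a block, called 0 of 8 members and 0% of all genes (edgeR, 0 of 20363 genes, with 1454 at an unadjusted p under 0.05). *Tsc22d3*, whose difference went from -0.44 in forebrain to -0.06 in hindbrain, was the 1 member at an unadjusted p under 0.05. Without both replicate 3 mice 83 genes were called, with 0 of the 8 members among them.

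The pathway lists gave the same count. Of the 30 other glucocorticoid-induced genes, 29 were tested in forebrain and 30 in the other regions, and 0 were called, with medians of -0.10, -0.04 and -0.09 where those of all genes were between -0.01 and 0.00. Their summed CPM was 1629.6 in forebrain and 1431.7 in midbrain of Fmr1CRE replicate 1, the lowest of 6 in both regions, as *Txnip* and *Fkbp5* were. In hindbrain it was 1964.3 CPM in that mouse and lower, at 1930.6 CPM, in WT replicate 3, whereas *Txnip* and *Fkbp5* were lowest in Fmr1CRE replicate 1 there too. Neither the receptor machinery (12 genes), the p53 targets (13), the fasting, glucose and FoxO genes (16), the amino acid and unfolded protein stress genes (10) nor the paralogs (17) held a called gene in any region. The smallest adjusted p among them was 0.544, in the receptor machinery in hindbrain (edgeR). In forebrain the summed CPM of the 30 other glucocorticoid-induced genes did not overlap, at 1629.6 to 2184.8 in Fmr1CRE and 2265.9 to 2481.2 in WT. Nor did that of the p53 targets, at 421.8 to 436.8 and 445.6 to 483.8. These ranges keep the replicate 3 labels. The sums of the other pathway lists overlapped in forebrain, and those of all pathway lists overlapped in midbrain and hindbrain.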

How the data were processed

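Poly(A) RNA of forebrain, midbrain and hindbrain from 3 Fmr1CRE and 3 WT mice was sequenced as 18 single-end libraries. The authors ran bcbio_nextgen with Salmon 0.14.0 and DESeq2 1.30.1 on mm10, per the submitters' processing notes, and deposited raw counts per gene. The authors also deposited estimated counts per transcript from Salmon. The names of these sets disagree with the samples they are attached to, so they were used only pooled over the 18 sets, for transcript lengths and shares. A table of variance-stabilized values was not used here. Depth was 22455512 to 28061185 counts per library, and 105 genes without a symbol held 0.0438% of counts. The libraries of each group differed by more than sampling noise, so none was counted as a repeat.

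From the counts, edgeR 4.0.16 (R 4.3.3) was used with its filter on low counts, TMM scaling and the quasi-likelihood test. Genotypes were compared within each region and over the sum of the 3 regions of a mouse, and regions with the mouse as a block. The dependence of the genotype difference on region was tested in 1 fit with the mouse as a block. P-values were adjusted by Benjamini-Hochberg over all genes tested. Between genotypes they set the difference against the spread between mice. In the fits with the mouse as a block they set it against the spread within mice. All 6 mice were of 1 age. CPM and RPKM used the TMM scaling of the 18 libraries, and log2 CPM a prior count of 2. DESeq2 1.42.0, other scalings and filters, and leaving out mice were tried as alternatives, and leaving out both mice of replicate 2 was added after seeing the data. In simulated forebrain data of 18217 genes, 83 of 100 genes changed by 1 on the log2 scale were recovered. Of those changed by 2, 100 of 100 were recovered, with 19 false calls. The changed genes were drawn from those above the median level, with the spread fitted to these data. Changes as small as the members' genotype differences were not simulated. The largest of these over all 6 mice was -0.63, for *Txnip* in forebrain.

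The members and the gene lists were chosen with earlier results of these data known. The 8 members are named in every comparison. The rule for the other lists was to name every gene called between genotypes and, between regions, up to 3 higher and 3 lower called genes, taken by size of the fold change. It was followed in part for the pathway lists, where 1 gene is not reported here and some paralogs are left unnamed. The marker, clock and immediate early lists are given by counts, medians and sums, without naming their called genes. The genes most like the members are the 10 with the highest correlation with the mean of the members other than *Nr3c1*, and the 5 for *Nr3c1*. *Fos*, *Rps15a-ps8* and the marker sums of single mice were named after their values were seen. The libraries were sequenced in 2 pools whose members are not given in the sources used here, and a pool difference was not tested. The time of day and the feeding state at dissection are likewise not given in the sources used here.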

Additional observations from a re-analysis of the deposited data

How the results depend on the processing

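The log2 fold changes of the 8 members kept their direction wherever they were called. Of their values between genotypes under the alternatives, 436 moved by less than the spread between mice and 4 by more, and between regions 280 kept their call, 7 lost it and 1 gained it. Genes called between genotypes numbered 0 in forebrain, 1 in midbrain, 0 in hindbrain and 1 in the sums. DESeq2 called 31, 62, 60 and 29, and 1 fit of all 18 libraries called 1, 0 and 1 in the 3 regions. With no filter, 11 were called in midbrain, 11 in hindbrain, 4 in the sums and 2 for the dependence on region, where 0 were called with the filter and all mice. With at least 10 counts in every library, 0 were called in midbrain. Without both mice of replicate 3, 3 were called in midbrain, 1 in hindbrain and 0 in the sums, and 83 for the dependence on region. The count for midbrain against forebrain then went from 3518 to 2165, and it was 2465 to 2944 with 1 mouse left out. Without both mice of replicate 2, 0 were called in the sums. Leaving out 1 mouse at a time gave 0 to 4 genes in midbrain (4 without Fmr1CRE replicate 3), 0 to 5 in hindbrain (5 without WT replicate 3), 0 to 0 in the sums and 0 to 4 for the dependence on region (4 without Fmr1CRE replicate 3). The cause of these changes was not tested. With the replicate number as a replicate block, 0, 1 and 0 genes were called in the regions and 0 in the sums. Same-numbered mice had correlations of deviations between -0.12 and 0.07. The authors describe the WT and Fmr1CRE mice as of the same litter, and whether 1 litter gave all mice is not stated. Whether same-numbered mice shared a dissection day or a pool was not tested. With 3 mice a group, the interval of *Txnip* in hindbrain reached from -1.05 to 0.39, so that a loss or a gain within it is not excluded.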
